A study of Rattus norvegicus with 2 samples.

Results

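The enzymes that attach glutathione, glucuronic acid or sulfate to foreign and endogenous compounds, and the enzymes that remove peroxides and superoxide, were compared between uncultured rat lung and mix1, which pooled bone marrow cells (BMC) with primary ear fibroblasts (PEF), both of rat and both cultured. A gene was a member where its array-annotation symbol named a glutathione S-transferase, a UDP-glucuronosyltransferase, a sulfotransferase, a glutathione peroxidase or a peroxiredoxin, or was one of 16 further symbols of antioxidant enzymes and metallothioneins. This gave 76 genes, measured by 93 probes, of 15615 named genes in all. For 3 of the 16 symbols, Srxn1, Mt1a and Mt2A, no named probe was used here, so the 76 hold no metallothionein. The lung RNA came from 2 samples, untreated and taken without culture. Both components of mix1 had been grown in medium with fetal bovine serum, and mix1 was the control on both arrays. The labels used here name no strain, age or number of animals for either side. Each lung sample was labelled with Cy3 and hybridised against mix1 in Cy5 on a 2-colour Agilent array, with no dye swap. A dye effect and the difference between the RNAs therefore cannot be told apart, and p-values measure only the spread between the 2 lung arrays, which may be technical.

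Conjugation makes lipophilic compounds soluble enough to be exported. Glutathione S-transferases join the tripeptide glutathione to electrophiles, UDP-glucuronosyltransferases transfer glucuronic acid from UDP-glucuronate, and sulfotransferases transfer sulfate from the donor PAPS. The same glutathione feeds several glutathione peroxidases, while most peroxiredoxins draw on thioredoxin. Many genes of both systems are targets of the transcription factor NRF2. In the lung these enzymes are known chiefly from club cells, alveolar type 2 cells and the lining fluid, which meet inhaled oxidants and toxicants.

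Every value below is a log2 ratio as the authors deposited it, read as lung over mix1, so a value above 0 means more signal from lung. The log base is assumed, and fold changes rest on base 2. That direction is likely and is not stated outright in the sources used here. It rests on the wording of the series and on 6 lung genes (Sftpc, Sftpa1, Sftpb, Sftpd, Scgb1a1 and Ager), whose median was 5.66 in replicate 1 and 5.62 in replicate 2, and with the sign turned every direction below would be the opposite. The other markers of lung epithelium were higher in lung, for example Lamp3 at 7.11 and Foxj1 at 4.73. So were 4 of 4 endothelial and 5 of 5 measured red cell markers (2.30 to 4.58), and 6 of 6 fibroblast markers were lower (-7.44 to -3.92). Of 4 macrophage markers, Cd68 (0.72), Marco (1.69) and Mrc1 (2.59) were higher and Msr1 (-2.49) was lower. Of 3 measured smooth muscle markers, Tagln (-3.89) and Cnn1 (-3.29) were lower and Myh11 (-0.07) did not pass. The median gene lay at -0.23. Subtracting each array's median moved it up by 0.19, so ratios within about that distance of 0 have no firm sign. A ratio gives no level, and in whole tissue a smaller share of cells of a type and less RNA per cell cannot be told apart.

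The 76 enzymes did not move as a block. In limma's test of the mean ratio against 0, 27 were higher in lung, 32 were lower and 17 did not pass a Benjamini-Hochberg adjusted p of 0.05. Among all genes, 32.9% were higher and 49.8% lower by the same rule, 82.7% together, so the members' shares (35.5% and 42.1%) lay near the background. With array medians subtracted, 31 members were higher and 25 lower, against 38.5% and 38.0% of all genes. Tested against a 2-fold change with limma's treat, 13 were higher and 11 lower, against 13.7% and 12.1% of all genes. At least 2-fold in both arrays, 14 were higher and 13 lower, against 16.5% and 15.8% of all genes. The conjugation enzymes and the antioxidant enzymes are described apart. Of 49 conjugation enzymes, 19 were higher and 17 lower, and past 2-fold in both arrays were 11 upward and 2 downward. Of 27 antioxidant enzymes, 8 were higher and 15 lower, and past 2-fold in both arrays were 3 upward and 11 downward. The median was 0.02 for conjugation enzymes, with replicate 1 at -0.05 and replicate 2 at 0.15, and -0.54 for antioxidant enzymes. Of the 59 members that passed, 31 were under 2-fold in the mean.

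**Figure D1:**
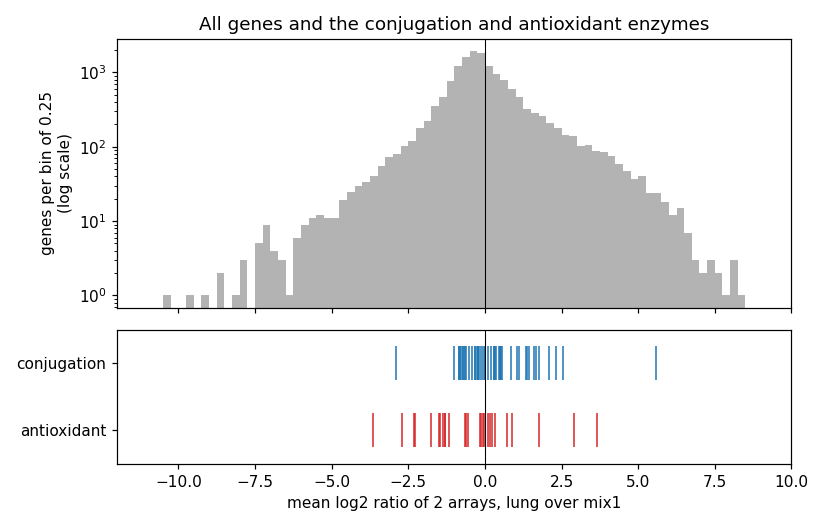
The upper panel is a histogram of the mean log2 ratio of lung over mix1 for all 15615 named genes, with the number of genes on a log axis. The lower panel marks each conjugation enzyme and each antioxidant enzyme on the same axis: most lie within 1 of 0, Sult1a1 stands alone at 5.57, and Gpx8 is the lowest at -3.66.

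Promoter sequences are shown for the members at least 2 from 0 on the log2 scale whose promoter held the core of the antioxidant response element, the site through which NRF2 acts, and for Prdx1 as a further enzyme that was lower in lung. They are RefSeq sequences of build GRCr8, 300 bases around the start of the gene, read 5′ to 3′ on the gene's strand, with each match to TGACNNNGC on either strand in capitals. Gclm lies at chr2:213031885-213032184 (plus strand), Gpx2 at chr6:101229984-101230283 (minus), Gsta1 at chr9:31216483-31216782 (minus), Gstm5 at chr2:198219519-198219818 (plus) and Prdx1 at chr5:135383656-135383955 (plus).
Gclm: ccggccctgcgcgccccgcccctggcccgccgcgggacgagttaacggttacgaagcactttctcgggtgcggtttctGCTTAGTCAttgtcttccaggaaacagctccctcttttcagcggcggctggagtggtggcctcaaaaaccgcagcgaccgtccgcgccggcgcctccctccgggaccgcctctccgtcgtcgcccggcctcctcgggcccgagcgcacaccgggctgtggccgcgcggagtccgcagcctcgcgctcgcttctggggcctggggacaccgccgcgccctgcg
Gpx2: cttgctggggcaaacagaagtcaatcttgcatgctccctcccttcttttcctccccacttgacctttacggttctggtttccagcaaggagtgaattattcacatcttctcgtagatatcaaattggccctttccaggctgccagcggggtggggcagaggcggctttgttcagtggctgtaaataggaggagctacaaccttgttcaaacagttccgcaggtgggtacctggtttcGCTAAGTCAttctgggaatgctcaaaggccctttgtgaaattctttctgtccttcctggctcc
Gsta1: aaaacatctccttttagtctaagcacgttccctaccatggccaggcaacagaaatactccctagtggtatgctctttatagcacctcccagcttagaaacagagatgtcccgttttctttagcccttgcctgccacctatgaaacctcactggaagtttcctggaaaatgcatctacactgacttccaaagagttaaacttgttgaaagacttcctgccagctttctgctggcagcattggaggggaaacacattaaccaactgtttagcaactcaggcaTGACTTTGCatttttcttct
Gstm5: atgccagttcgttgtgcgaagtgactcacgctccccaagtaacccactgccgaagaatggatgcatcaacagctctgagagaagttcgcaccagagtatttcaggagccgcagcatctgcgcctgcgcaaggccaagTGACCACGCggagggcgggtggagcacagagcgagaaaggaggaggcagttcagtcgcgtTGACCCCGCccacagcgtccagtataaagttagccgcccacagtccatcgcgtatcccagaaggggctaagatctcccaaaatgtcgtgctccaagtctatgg
Prdx1: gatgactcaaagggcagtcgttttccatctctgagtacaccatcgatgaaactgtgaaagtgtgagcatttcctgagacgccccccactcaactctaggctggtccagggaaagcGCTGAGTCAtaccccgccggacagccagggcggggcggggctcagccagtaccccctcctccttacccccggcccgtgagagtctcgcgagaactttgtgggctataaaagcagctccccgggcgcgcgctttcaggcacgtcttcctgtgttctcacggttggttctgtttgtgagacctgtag

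In Gclm and Gpx2, both higher in lung, the match lies on the opposite strand and starts at position -172 and -13 from the start of the gene. Gsta1, also higher, has its match at 30, inside the transcribed part. Gstm5, lower in lung, has 2 matches, at -113 and -53. The match of Prdx1 at -135 overlaps TGANTCA, the AP-1 site, which the element's core can contain. The promoter table held 64 of the 76 members, and 14 of them had a match in at least 1 promoter. By promoter, 14 of 70 member promoters (20.0%) and 4038 of all 33469 promoters of the same length (12.1%) held one. Of the 14 genes with a match, 6 were higher in lung (Gclm, Gpx2, Gsta1, Gsta3, Gstm7 and Hmox2), 7 were lower (Gstm5, Gstp1, Prdx1, Prdx4, Prdx5, Sod2 and Txnrd1) and Gsta2 did not pass. Their median was -0.31, against -0.03 for the 50 members without one. Other motifs scanned were also more frequent in member promoters than in all promoters. TGANTCA was in 10% against 7.3%, and GCGTG in 37.1% against 29.7%. The 24 members with GCGTG had a median of -0.47, against 0.30 for those without it. Medians of all genes with and without each motif are not given here, so these differences cannot be called particular to the members. The promoter windows of Nqo1, Sult1a1, Gsta4, Sult1c2a and Gss hold no match to TGACNNNGC, which says only that these letters are not in these 300 bases. Of the 11 members at least 2 from 0, 9 were in the promoter table. Gpx8 and Hmox1 were not, so their promoters were not searched.

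Of 22 glutathione S-transferases measured, 14 were higher in lung (63.6%), 7 lower (31.8%) and 1 did not pass, with a median of 0.48. Of all genes, 32.9% were higher and 49.8% lower, and the same shares stand behind the counts of every family below. With array medians subtracted the 14 still passed and 5 were lower. Of the alpha genes 3 of 4 and of the theta genes 4 of 4 were higher, mu genes lay on both sides, and Gstp1, the only pi gene measured, was lower.

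In the alpha class, Gsta4 had log2 ratios of 2.46 and 2.20 in the 2 arrays, a mean of 2.33 ± 0.18 (SD, n = 2) or 5.04-fold higher in lung (adjusted p 0.00234). It encodes the transferase that clears hydroxynonenal, a product of lipid peroxidation. Gsta1, annotated on the array as Gsta3, had 2.11 and 2.08, a mean of 2.09 ± 0.02 or 4.27-fold (adjusted p 0.00118). Gsta3, annotated as Gsta5, had 1.34 and 1.36, a mean of 1.35 ± 0.01. Gsta2 was the lowest of the class at -0.18 and 0.17, which lie on either side of 0 (adjusted p 0.964). With the median probe, here the lower of its 2, Gsta2 lay at -0.77 and passed as lower (adjusted p 0.00288). With the probes averaged no alpha gene was lower in limma's test, with robust eBayes or at an unadjusted p under 0.05.

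The mu class had the widest spread of the transferases. Gstm5 was lowest, at -2.90 and -2.93, a mean of -2.91 ± 0.02 (SD, n = 2) or 7.54-fold lower in lung (adjusted p 0.00117). Gstm1, a major detoxifying mu enzyme of rat liver, was highest at 1.39 and 1.33, a mean of 1.36 ± 0.05 or 2.57-fold higher. For both genes the arrays lay close together and far from 0. Gstm7 (1.10) and Gstm6l (0.50) were also higher, and Gstm3 (-0.68) and Gstm4 (-0.73) lower. Gstm2 passed as lower at -0.18, and with array medians subtracted it lay at 0.012 and no longer passed. In the RefSeq gene order all 7 mu genes form 1 run, with at most 2 other protein-coding genes between members, and within that run Gstm5, Gstm3, Gstm2 and Gstm4 were lower while Gstm6l, Gstm7 and Gstm1 were higher.

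In the theta class, Gstt3 was highest at 1.81 and 1.71, a mean of 1.76 ± 0.07 (SD, n = 2) or 3.39-fold higher in lung (adjusted p 0.00158). Gstt2 followed at 1.45, Gstt4 at 0.49 and Gstt1, which acts on small halogenated compounds, at 0.23 and 0.15 with a mean of 0.19. These 4 are neighbours in the genome as well, and all 4 lay above 0 in both arrays. No theta gene was lower in limma's test, with robust eBayes or at an unadjusted p under 0.05. Gstp1, known as an abundant transferase of many cultured and tumour cells, lay at -0.81 and -0.80, a mean of -0.81 ± 0.01 or 1.75-fold lower. Of the omega genes, Gsto2 was higher at 0.44 and 0.69, a mean of 0.57 ± 0.18. Gsto1 was lower at -0.29 and -0.38, a mean of -0.34 ± 0.06, a call that ended with array medians subtracted (-0.15, adjusted p 0.081). Gstk1, the mitochondrial and peroxisomal kappa enzyme, was higher at 0.29 and 0.32, a mean of 0.30 ± 0.03.

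The membrane-bound enzymes also differed among themselves. Mgst1, the microsomal transferase with peroxidase activity, lay at 1.65 and 1.67, a mean of 1.66 ± 0.01 (SD, n = 2) or 3.15-fold higher in lung (adjusted p 0.00125). Mgst3 was higher at 0.47 and Mgst2, which can make leukotriene C, was lower at -0.50 and -0.51.

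**Figure D2:**
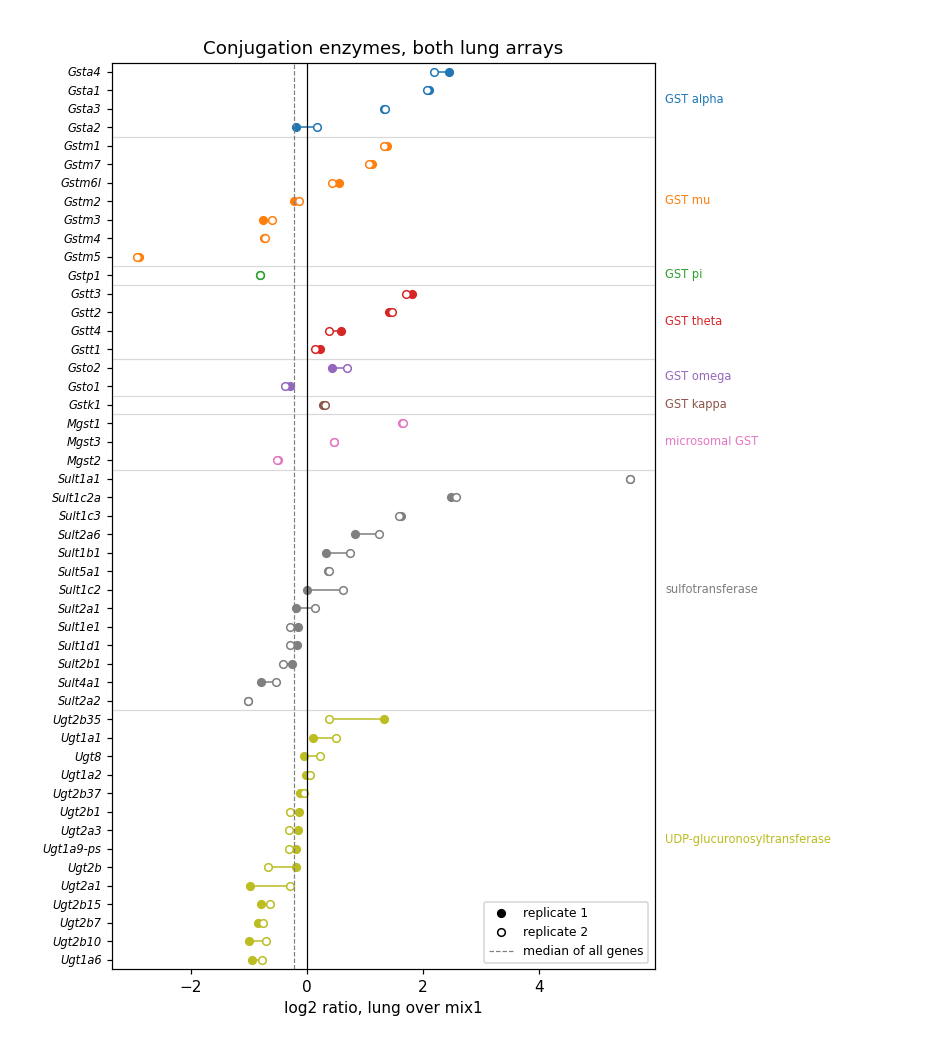
Log2 ratios of lung over mix1 for the 49 conjugation enzymes, with replicate 1 as a filled and replicate 2 as an open circle joined by a line, coloured and grouped by family. The solid line marks 0 and the dashed line the median of all genes at -0.23: Sult1a1 stands far to the right at 5.57, Gstm5 is the lowest at -2.91, and the UDP-glucuronosyltransferases lie around the dashed line.

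Sulfotransferases held the highest ratio of all members. Sult1a1, which sulfates phenols and phenolic drugs, had 5.57 in both arrays, a mean of 5.57 ± 0.000409 (SD, n = 2) or 47.6-fold higher in lung (adjusted p 0.00117). It ranked 89 from the top of all 15615 genes. The next member in the family, Sult1c2a, had 2.50 and 2.58, a mean of 2.54 ± 0.06 or 5.80-fold higher, with its 2 probes at 2.87 and 2.20. With symbols updated to RefSeq, a further probe, which lay below 0, joined the gene through a synonym. The mean of Sult1c2a was then 1.62 (adjusted p 0.00126). Sult1c3 at 1.61, Sult2a6 at 1.03 and Sult5a1 at 0.37 were higher too.

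Of the remaining sulfotransferases, Sult1b1 at 0.54 and Sult1c2 at 0.32 lay above 0 without passing and the others had means below 0. Sult2a2 was lowest at -1.01 in both arrays, a mean of -1.01 ± 0.0021 (SD, n = 2) or 2.01-fold lower in lung (adjusted p 0.00173), and Sult4a1, known from brain, was lower at -0.66. In all, 5 of 13 were higher, 5 lower and 3 (Sult1b1, Sult1c2 and Sult2a1) did not pass. Of the 5 lower calls, those of the oestrogen sulfotransferase Sult1e1 (-0.22), of Sult1d1 (-0.23) and of the cholesterol sulfotransferase Sult2b1 (-0.34) ended with array medians subtracted, and Sult1b1 then passed as higher (0.73). The arrays of Sult1e1 (-0.16 and -0.29) and Sult1d1 (-0.18 and -0.29) lay near those of unrelated genes. Examples are the pseudogene Ugt1a9-ps (-0.19 and -0.30) and the liver marker Tat (-0.17 and -0.30). Whether any of them gave signal above background was not tested. With the median probe Sult1c2 passed as lower (-0.42, adjusted p 0.0414). The Sult2a genes are neighbours whose values spread from Sult2a6 at 1.03 through Sult2a1 at -0.02 to Sult2a2 at -1.01. Sult2a1 and its relatives are known as liver enzymes. Of 6 liver markers, 4 were higher in lung (Cyp2e1 at 4.74, Alb at 2.81, Serpina1 at 2.21 and Apoa1 at 1.60), Tat was lower at -0.23 and Ttr did not pass at 0.57. Lung cells are known to express some of these, and their part in the sulfotransferase values was not tested.

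No UDP-glucuronosyltransferase was higher in lung. Of 14 measured, 5 were lower (35.7%, against 49.8% of all genes) and 9 did not pass in limma's test. The 14 were grouped by symbol and include the galactolipid enzyme Ugt8, which did not pass, and the pseudogene Ugt1a9-ps, which was lower. The count of higher genes was also 0 with robust eBayes and at an unadjusted p under 0.05. With array medians subtracted, Ugt1a1 (0.49) and Ugt2b35 (1.05) passed as higher and 4 were lower. With the median probe Ugt2b37 (-0.68, adjusted p 0.00281) passed as lower too. The family median was -0.23, close to that of all genes. None reached 2-fold in both arrays.

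Ugt1a6, which glucuronidates small planar phenols, was lowest at -0.95 and -0.77, a mean of -0.86 ± 0.12 (SD, n = 2) or 1.81-fold lower in lung (adjusted p 0.00618). Ugt2b10 (-0.85), Ugt2b7 (-0.80), Ugt2b15 (annotated as Ugt2b17, -0.71) and the pseudogene Ugt1a9-ps (-0.25) also passed, the last only without centring. Ugt2b35, annotated as Ugt2b15, had the highest mean at 0.86 ± 0.68, from arrays at 1.34 and 0.38 (adjusted p 0.112). Ugt1a1, the bilirubin transferase, lay at 0.30 ± 0.28 and Ugt8, which makes the galactolipid of myelin, at 0.09 ± 0.20. The arrays differed more here than elsewhere: the median SD was 0.12 for this family and 0.05 for all members. Whether these probes, or those of any other gene, lay above background in either channel was not analysed here. The median and the called shares of all genes carry the same limit. Genes of the Ugt1a and Ugt2b clusters share much sequence, as do the mu and alpha transferases and the sulfotransferases, so a value can hold signal from a close relative, and this was not tested.

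The glutathione peroxidases held both the highest and the lowest antioxidant enzyme. Gpx2, the epithelial and gastrointestinal form, had 3.70 and 3.62, a mean of 3.66 ± 0.05 (SD, n = 2) or 12.7-fold higher in lung (adjusted p 0.00117). Gpx8, a membrane enzyme of the endoplasmic reticulum, had -3.62 and -3.69, a mean of -3.66 ± 0.04 or 12.6-fold lower (adjusted p 0.00117). The arrays of the 2 genes lay on opposite sides of 0. The size for Gpx2 rests on the average of its 2 probes, at 2.59 and 4.73, and with the median probe, here the lower, it was 2.59.

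Between them, the ubiquitous cytosolic enzyme Gpx1 was higher at 0.91 and 0.87, a mean of 0.89 ± 0.02 (SD, n = 2) or 1.85-fold. Gpx7, like Gpx8 an enzyme of the endoplasmic reticulum, was lower at -1.47 and -1.43, or 2.73-fold. Gpx3, the secreted plasma form, was lower at -1.48 and -1.52, or 2.83-fold. Gpx4, which reduces phospholipid peroxides, did not pass at -0.11 (adjusted p 0.0625). Gpx6 was lower at -0.54, and Gpx5, an epididymal enzyme, lay at -0.64 in replicate 1 and 0.55 in replicate 2, the largest gap of all members. In all, 2 of 8 were higher, 4 lower and 2 did not pass, with a median of -0.33 that was -0.53 in replicate 1 alone and -0.38 in replicate 2 alone. Fibroblast markers were lower in lung beside Gpx7 and Gpx8, 6 of 6, with Col1a1 at -7.25 and Thy1 at -3.92. Their part in these values was not tested.

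**Figure D3:**
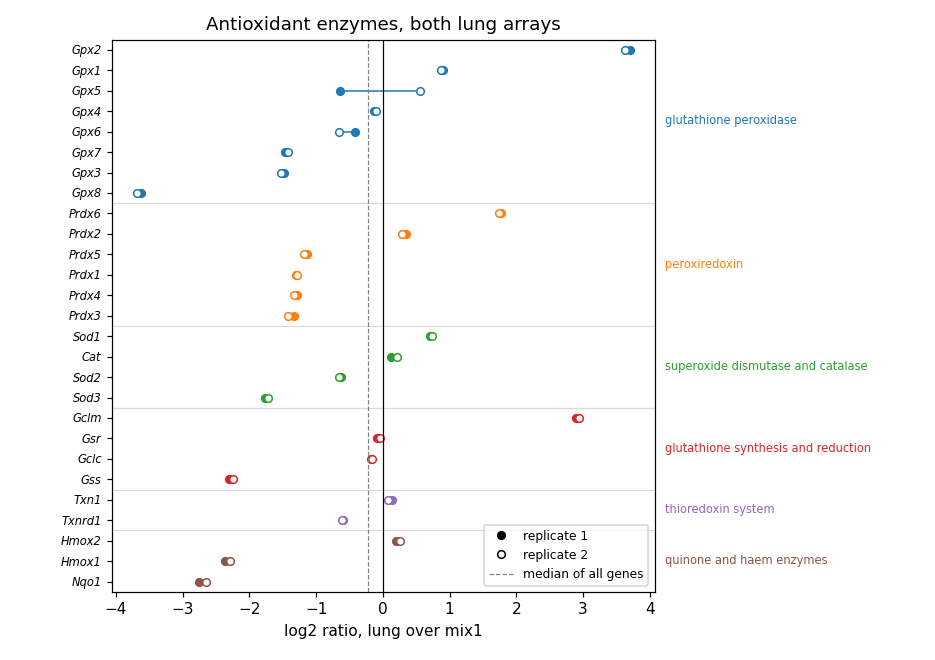
Log2 ratios of lung over mix1 for the 27 antioxidant enzymes, with replicate 1 as a filled and replicate 2 as an open circle joined by a line, grouped by family. The solid line marks 0 and the dashed line the median of all genes: 3 genes (Gpx2, Gclm and Prdx6) lie more than 1 to the right of 0, 11 lie more than 1 to the left, and only the arrays of Gpx5 are far apart.

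Peroxiredoxins split 4 lower to 2 higher. Prdx6, which has peroxidase and phospholipase activity and takes part in surfactant lipid turnover in lung, had 1.76 and 1.75, a mean of 1.76 ± 0.01 (SD, n = 2) or 3.38-fold higher in lung (adjusted p 0.00123). Prdx3, the mitochondrial form, was lowest at -1.33 and -1.42, a mean of -1.37 ± 0.06 or 2.59-fold lower (adjusted p 0.00176). The 4 lower genes lay within a narrow band. Prdx4 of the endoplasmic reticulum was at -1.31, the cytosolic Prdx1 at -1.30 and Prdx5 at -1.16, each at least 2-fold lower in both arrays. Prdx2, abundant in red cells, was higher at 0.31 ± 0.05. Red cell markers were higher beside it (5 of 5, with Hbb at 3.94 and Alas2 at 3.55), and their part in it was not tested.

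The superoxide dismutases did not move together. Sod3, the secreted enzyme bound to matrix and vessel walls, was lowest at -1.76 and -1.73, a mean of -1.74 ± 0.02 (SD, n = 2) or 3.35-fold lower in lung (adjusted p 0.00125). The mitochondrial Sod2 was lower at -0.65 ± 0.02 and the cytosolic Sod1 higher at 0.71 and 0.73, a mean of 0.72 ± 0.02 or 1.65-fold. Catalase (Cat) lay just above 0 at 0.13 and 0.20, a mean of 0.17 ± 0.05 (adjusted p 0.0473). That call ended when the arrays were scaled to each other (adjusted p 0.0523), at nearly the same ratio.

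In glutathione synthesis the 2 subunits of glutamate-cysteine ligase, which makes the first intermediate, had unequal ratios. Gclm, the modifier subunit, had 2.90 and 2.94, a mean of 2.92 ± 0.03 (SD, n = 2) or 7.55-fold higher in lung (adjusted p 0.00117). Gclc, the catalytic subunit, had -0.17 in both arrays, and its call as lower (adjusted p 0.0276) ended at 0.018 with array medians subtracted. Gss, the synthetase of the second step, had -2.30 and -2.24, a mean of -2.27 ± 0.04 or 4.84-fold lower (adjusted p 0.00118). Glutathione reductase (Gsr), which regenerates glutathione, did not pass at -0.07. Each of these 4 genes had a single probe.

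Of the thioredoxin genes, Txn1 had 0.14 and 0.08, a mean of 0.11 ± 0.04, and did not pass (adjusted p 0.0804; 0.30 and passed as higher with array medians subtracted). Its reductase Txnrd1 was lower at -0.59 and -0.62, a mean of -0.60 ± 0.02 (SD, n = 2). Nqo1 and Hmox1 were among the lowest members. Nqo1, the quinone reductase, had -2.76 and -2.66, a mean of -2.71 ± 0.08 or 6.54-fold lower in lung (adjusted p 0.00123). Hmox1, the inducible haem oxygenase, had -2.37 and -2.28, a mean of -2.32 ± 0.06 or 5.01-fold lower (adjusted p 0.00123). Its constitutive relative Hmox2 was higher at 0.20 and 0.25, a mean of 0.23 ± 0.03.

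Several ratios depended on the probe. Of the 76 members, 60 had 1 probe and 16 had several, and in 7 of the 16 the probes differed by at least 1 on the log2 scale. The widest gap was that of Gstt2, with probe means of 0.36 and 2.54, followed by Gpx2 with 2.59 and 4.73. Both probes of each gene lay above 0, so the size of the difference and not its direction depended on them. By annotation symbol, which leaves out the further probe of Sult1c2a, 7 members had probes on opposite sides of 0. They were Gsta2 (-0.77 and 0.76), Sult1c2 (-0.42 and 1.05), Sult1b1 (-0.12 and 1.19), Ugt2b37 (-0.68 and 0.50), Txnrd1 (-1.0004, -0.982 and 0.17), Hmox2 (-0.10 and 0.55) and Ugt1a2 (-0.03 and 0.06). The lower call of Txnrd1 and the higher call of Hmox2 thus hold for some of their probes. Without these 7 members, chosen after their values were seen, 26 were higher and 31 lower.

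**Figure D4:**
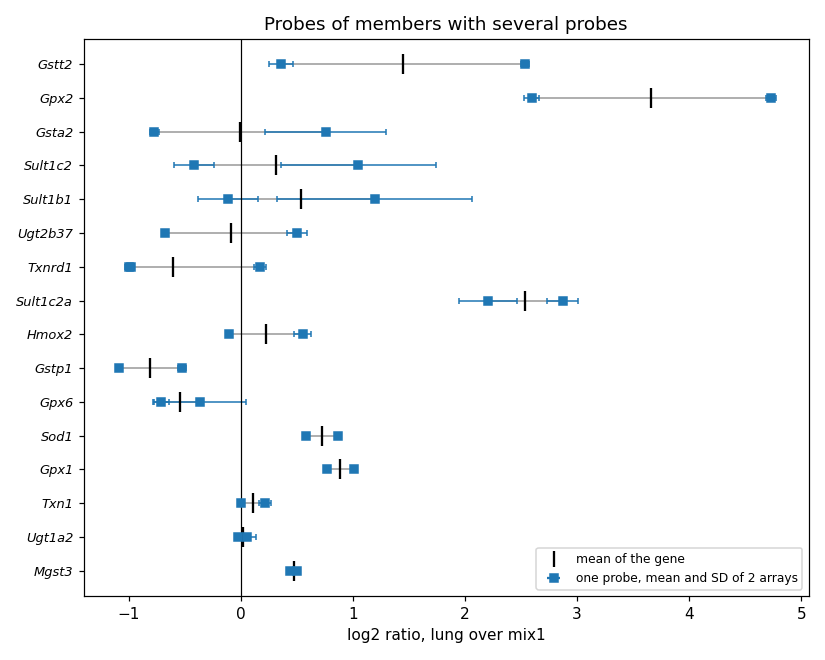
Log2 ratio of lung over mix1 for each probe of the 16 members with several probes, as the mean (square) and SD (bar) of 2 arrays, with the mean of the gene as a vertical tick. Genes are ordered by the gap between their probes: Gstt2 and Gpx2 have gaps over 2, and the probes of Sod1, Gpx1, Txn1, Ugt1a2 and Mgst3 lie within 0.3 of each other.

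Of 84 other genes of the same pathways, 72 had a named probe, and 26 were higher in lung (36.1%), 34 lower (47.2%) and 12 did not pass, with a median of -0.17. These shares lay near the 32.9% and 49.8% of all genes. The highest were Pon3, a lactonase bound to lipoproteins, at 6.16 and 5.97 with a mean of 6.06 ± 0.13 (SD, n = 2), and the selenium carrier Selenop at 4.82 and 5.50 with a mean of 5.16 ± 0.48. Inmt, a methyltransferase abundant in lung, followed at 3.99 ± 0.01 and Txnip, the inhibitor of thioredoxin, at 3.83 ± 0.06. These 4 ratios exceeded those of every antioxidant member. The lowest were the glutathione-degrading Chac1 at -3.85 ± 0.20, Papss2 at -2.83 ± 0.31, Ugdh at -2.65 ± 0.02 and the NADPH-producing malic enzyme Me1 at -1.98.

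Of 5 suppliers of the conjugating groups listed, 4 were measured, and Papss1 had no named probe. The 4 measured passed as lower in lung, where 49.8% of all genes did. With array medians subtracted 3 did, and Ugp2 (-0.17) no longer passed. Among them are Papss2, which makes the sulfate donor PAPS, Slc35b2, which carries PAPS into the Golgi, at -1.12, and Ugdh, which makes UDP-glucuronate. Beside them stand Sult1a1 at 5.57 and a family of glucuronosyltransferases with no higher call. Among regulators, Nfe2l2, which encodes NRF2, was higher at 1.14 and 1.18, a mean of 1.16 ± 0.03 (SD, n = 2) or 2.23-fold. Its inhibitor Keap1 was lower at -0.37 ± 0.02, and its small partners Mafg (-0.72) and Maff (-0.78) were lower as well. Of the other regulators measured, Nr1i2 (0.67) was higher, Arnt (-0.92) and Nr1i3 (-1.49) were lower, and Bach1 (-0.24) and Mtf1 (-0.20) did not pass. In all, 2 of 9 regulators were higher (22.2%) and 5 lower (55.6%), against 32.9% and 49.8% of all genes. The cystine carrier subunit Slc7a11 had -0.18 and -0.30, a mean of -0.24, near the arrays of Sult1d1 (-0.18 and -0.29). Whether Slc7a11 gave signal above background was not tested. Of the glutathione breakdown enzymes, Dpep1 (1.94), Ggct (1.34), Ggt1 (0.87) and Chac2 (0.24) were higher and Chac1 (-3.85) and Ggt5 (-0.52) lower, while Oplah (0.18) and Anpep (0.03) did not pass. Of 5 exporters of conjugates, Abcc4 (0.52) and Abcg2 (0.28) were higher, and Abcc1 (-0.35), Abcc3 (-0.55) and Abcc2 (-1.04) lower.

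**Figure D5:**
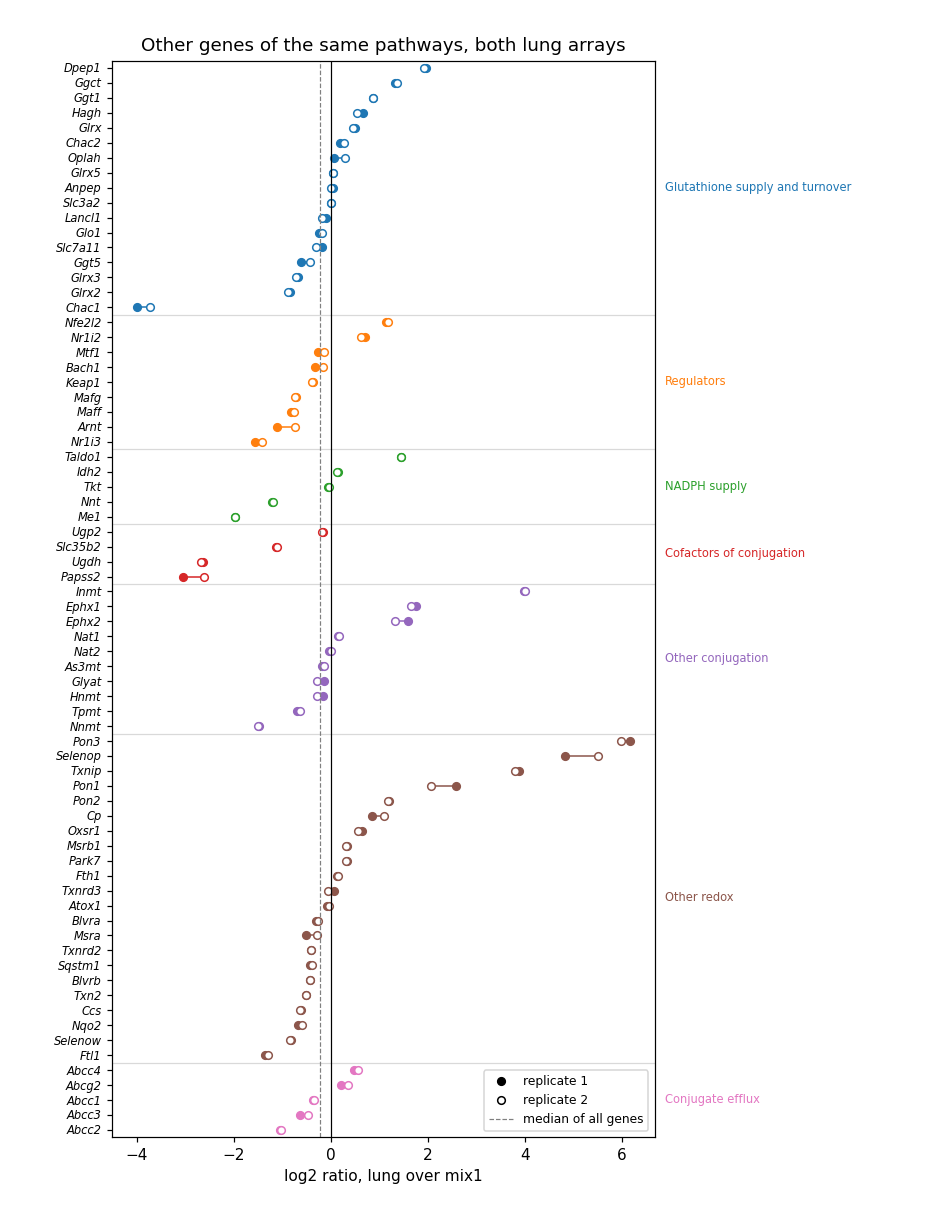
Log2 ratios of lung over mix1 for the 72 other genes of the pathways, grouped by role, with replicate 1 as a filled and replicate 2 as an open circle joined by a line. The solid line marks 0 and the dashed line the median of all genes: Pon3 is highest at 6.06, Chac1 lowest at -3.85, and the 4 genes that supply conjugating groups all lie left of 0 (Ugp2 does not with array medians subtracted).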

How the data were processed

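2-colour arrays were read as 1 value per probe and array. The authors' deposited log2 ratios were used as they stand, made with Agilent Feature Extraction per the submitters' processing notes. The version, settings, log base, background correction and centring were not given in the sources used here. Values run from -11.74 to 9.09, too wide for base-10 logarithms of a scanner of common bit depth, so base 2 was assumed. Array medians over all probes are -0.16 and -0.21. Scanner intensities were not used here, and 2 arrays limit the precision.

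Of 40012 probes, 20417 have 1 gene symbol in GEO's platform annotation, none has several and 19595 are unnamed here. Probes were averaged per annotation symbol. Members are printed under current RefSeq symbols (assembly GRCr8), which changed 4 of the 76. The test was limma 3.58.1 under R 4.3.3 (intercept, eBayes, Benjamini-Hochberg over 15615 genes, threshold 0.05; 1 residual and 1.28 prior degrees of freedom), after a test on simulated data. Both array values are printed for members at least 2 from 0 and for the highest and lowest of each family; of the other pathway genes, the 4 highest and 4 lowest, and further ones by role, chosen after their values were seen. Members and lists were chosen with earlier results of these data known. Alternatives were the median probe, updated symbols, single probes, robust eBayes, treat, a threshold of 0.01, array medians subtracted, arrays scaled to each other, and each array alone.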

Additional observations from a re-analysis of the deposited data

How the results depend on the processing

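The counts of members called changed by more than 1.5 times under 1 alternative: against a 2-fold change, limma's treat called 13 higher and 11 lower in lung, against 2144 and 1882 of all genes and 10 and 8 of the other pathway genes. Under the other alternatives the counts of calls and of 2-fold differences stayed within 1.5 times. In each array alone, 15 members were at least 2-fold higher and 13 lower. Medians moved with centring: with array medians subtracted that of all members turned from -0.08 to 0.11, of the mu class from -0.18 to 0.012 and of glutathione synthesis from -0.12 to 0.067. In that setting the medians were 1.91 for alpha, 1.16 for theta, -0.046 for glucuronosyltransferases, -0.14 for glutathione peroxidases, 0.66 for microsomal transferases, -1.04 for peroxiredoxins, -2.14 for quinone and haem enzymes and -0.053 for superoxide dismutases with catalase. With the median probe (the lower of 2), the medians were -0.17 for all members, 0.43 for theta, -0.34 for glucuronosyltransferases and 0.44 for microsomal transferases, and that of the sulfotransferases turned from 0.32 to -0.12. Over single probes they were 1.35 for alpha, 0.49 for theta, -0.11 for glutathione peroxidases, -1.21 for quinone and haem enzymes and 0.17, from -0.24, for superoxide dismutases with catalase. Each array alone gave from -0.14 to -0.051 for all members, 1.72 for alpha in both, -0.21 to -0.14 for mu, 0.93 to 1.01 for theta, -0.30 to -0.16 for glucuronosyltransferases, -0.53 to -0.38 for glutathione peroxidases, -0.13 to -0.11 for glutathione synthesis, 0.47 in both for microsomal transferases, -1.24 to -1.22 for peroxiredoxins, -2.37 to -2.28 for quinone and haem enzymes, 0.0081 to 0.38 for sulfotransferases and -0.25 to -0.23 for superoxide dismutases. The sign of 8 genes near 0 turned with array medians subtracted: Gsta2 (0.18), Gstm2 (0.012), Ugt2b37 (0.098), Gpx4 (0.073), Gpx5 (0.14), Gclc (0.018), Gsr (0.12) and Sult2a1 (0.17). With the median probe it turned for Ugt1a2 (-0.027), Hmox2 (-0.10), Sult1b1 (-0.12) and Sult1c2 (-0.42). At a threshold of 0.01, 18 of the 59 calls ended, and with treat 35 did. Each ratio sets a lung sample against mix1 on the same array, and the test was run on these ratios. No further pairing was possible, because no other group shares the numbers of the lung samples.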
